A study of Rattus norvegicus with 10 samples.

Results

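Captured methylated DNA was examined around 3 genes, Jph3, Sipa1l2 and F1M710_RAT, in the amygdala stimulation model of epilepsy. The genes were chosen because the study pairs each of them with lower mRNA and a differentially methylated region after status epilepticus (SE). The members are all regions of the count table that overlap a window of 100 kb on either side of the paired regions, called listed regions here. There were 318 such regions among 574544 in the table, with 100 in the Jph3 window, 109 in the Sipa1l2 window and 109 in the F1M710_RAT window. The listed regions number 4, since F1M710_RAT has 2 of them, and they were picked by the study for a difference in these same libraries. Their differences are therefore described below and are not independent evidence. The other 314 members were taken for their position around the listed regions, the nearest only 0.02 kb from one. Like every region of the table, they had also differed between some pair of libraries. Their differences are thus not fully independent of these choices. The mRNA libraries were not analysed here.

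The rats were male Sprague-Dawley animals that carried an electrode in the left lateral amygdala, implanted under isoflurane after butorphanol. SE rats received a fixed period of stimulation through it, prolonged where SE had not begun, were later given diazepam, and had spontaneous seizures on video EEG. Control rats were sham operated and not stimulated. Tissue with CA3 and dentate gyrus was taken from the left hippocampus 3 months later, which the labels name dorsal hippocampus, and 1 methyl-capture library was made per rat. Of 5 control and 5 SE rats, control rat 2 and SE rat 7 are labelled discarded, which left control rats 1, 3, 4 and 5 and SE rats 6, 8, 9 and 10 for the comparison. Captured DNA holds no expression markers, so the labelled tissue was not checked against them. In tissue of mixed cell types, altered methylation in a cell and an altered share of cells cannot be told apart.

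Methyl-capture pulls down DNA fragments with a protein domain that binds methylated CpG sites, so that more tags in a region stand for more captured methylated DNA. Methylation near a transcription start is generally associated with silencing, whereas methylation inside a gene body occurs in active genes as well. Jph3 encodes junctophilin 3, a brain protein that ties the endoplasmic reticulum to the plasma membrane and so holds calcium channels of both membranes together. A repeat expansion in its human counterpart causes Huntington disease-like 2. Sipa1l2, also called Spar2, encodes a GTPase-activating protein for the small GTPase Rap that is found at synapses. The transcript that the study gives for F1M710_RAT belongs to Gtf2ird1 in RefSeq, a transcription factor of the TFII-I family. The human gene lies in the interval deleted in Williams-Beuren syndrome.

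By its symbol, each of the 3 genes had a promoter entry in the RefSeq table of build GRCr8, 300 bases long around the start site. The CG dinucleotide, the motif the capture protein binds when methylated and which reads the same on both strands, occurred 32 times in the Jph3 entry, 47 times in the Sipa1l2 entry and 31 times in the Gtf2ird1 entry. The median of 33469 such entries was 7, and 8.37%, 1.26% and 9.31% of them held at least as many. All 3 starts are thus rich in CpG sites. The stretch of the Gtf2ird1 entry that lies before the annotated gene is shown, since the study assigned one of the listed regions to a promoter of this gene. The study's promoters reach much further upstream than these entries, so a region assigned to one need not lie at the start site. It spans chr12:27890496-27890593 of GRCr8 on the plus strand, and the 9 CG dinucleotides are in capitals.
Gtf2ird1: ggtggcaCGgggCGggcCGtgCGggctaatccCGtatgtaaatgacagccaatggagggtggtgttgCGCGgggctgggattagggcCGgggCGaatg
The Jph3 entry lay wholly inside the annotated gene and is not printed. The counted regions carry RN4 positions, which were not carried over to GRCr8, so the sequence above is not shown to be that of a counted region. In the gene order of GRCr8, the protein-coding neighbours were Zcchc14 and Klhdc4 for Jph3, Disc1 and Setsip for Sipa1l2, and Clip2 and Gtf2i for Gtf2ird1.

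Totals ran from 5499370 to 7179519 tags in the 8 libraries compared, with 7154696 in control rat 2 and 14655629 in SE rat 7. Regions with a summed count below the median of 70 were left untested. Of the 318 members 180 passed (56.6%), 68 for Jph3, 62 for Sipa1l2 and 50 for F1M710_RAT, against 50.8% of the whole table. The 138 members that did not pass had too few tags to be tested singly and enter only the sums over windows. Normalized counts are tags per 1000000 tags of the library, counted over tested regions and scaled by the TMM method (CPM). Differences come from edgeR's quasi-likelihood test across all 291987 tested regions. A region was called at an unadjusted p below 0.01.

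In the listed regions of all 3 genes the captured DNA was higher in SE than in control rats, by 1.88 to 2.23 times. All 4 were called in the edgeR fit, a difference they had been chosen for. Unadjusted p was 0.000932 for the F1M710_RAT promoter region, 0.00116 for Sipa1l2, 0.00292 for the F1M710_RAT intron region and 0.00908 for Jph3 (edgeR). The study listed them at a stricter cut-off than the 0.01 used here, which only the F1M710_RAT promoter region met in this fit. None passed Benjamini-Hochberg adjustment over all tested regions, where the lowest adjusted p was 0.485. Single libraries held between 5 and 37 tags in these regions.

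The listed region of Jph3, junctophilin 3, lies on chromosome 19 of RN4 from 51973383 to 51973932, and the study assigns it to the promoter. Its normalized counts were 1.93, 3.46, 1.29 and 1.45 in control rats 1, 3, 4 and 5. In SE rats 6, 8, 9 and 10 they were 3.70, 4.32, 4.10 and 3.44. Control rat 3 reached the level of SE rat 10, so the groups overlapped, while the other 3 control rats lay well below every SE rat. Control rats averaged 2.03 ± 0.989 (SD, n = 4), against 3.89 ± 0.397 (SD, n = 4) after SE. The fitted log2 fold change came to 0.93 (standard error 0.35, adjusted p = 0.600, edgeR). Leaving out any rat except control rat 3 took the unadjusted p above 0.01, with log2 fold changes from 0.78 to 0.99, and without control rat 3 the value was 1.30. This was the weakest of the listed regions, and 4391st by p among all tested regions.

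In Sipa1l2, the synaptic Rap regulator, the listed region lies in an intron by the study's annotation, on chromosome 19 from 55642144 to 55642766. The normalized counts of the control rats were 2.18, 2.47, 1.55 and 1.65, and those of the SE rats 3.93, 4.32, 6.04 and 3.25, in the order given above. Every SE rat lay above every control rat, and SE rat 9 stood highest. Means were 1.96 ± 0.435 (SD, n = 4) and 4.38 ± 1.19 (SD, n = 4). The fitted log2 fold change came to 1.14 (standard error 0.34, adjusted p = 0.491, edgeR). Without SE rat 9 it was 0.96 and the region was no longer called.

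F1M710_RAT, the Gtf2ird1 transcription factor gene, had a listed region assigned to both promoter and intron on chromosome 12 from 23367776 to 23368926. Normalized counts there were 2.66, 3.96, 3.11 and 5.58 in the control rats and 6.01, 8.88, 6.76 and 7.07 in the SE rats. The groups did not overlap, although control rat 5 came close to SE rat 6. The means of 3.83 ± 1.29 (SD, n = 4) and 7.18 ± 1.22 (SD, n = 4) gave a log2 fold change of 0.88 (standard error 0.26, adjusted p = 0.485, edgeR). It was called without each of the 8 rats in turn.

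The other listed region of F1M710_RAT, in an intron, runs from 23336167 to 23336789. Control rats had 1.21, 1.73, 1.81 and 1.45, and SE rats 3.47, 2.40, 4.10 and 3.82, again without overlap between the groups. SE rat 8, the highest SE rat in the promoter region, was the lowest here. Means were 1.55 ± 0.275 (SD, n = 4) and 3.45 ± 0.745 (SD, n = 4), with a log2 fold change of 1.15 (standard error 0.38, adjusted p = 0.539, edgeR). Without control rat 1 it was 1.06 and the region was no longer called.

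**Figure D1:**
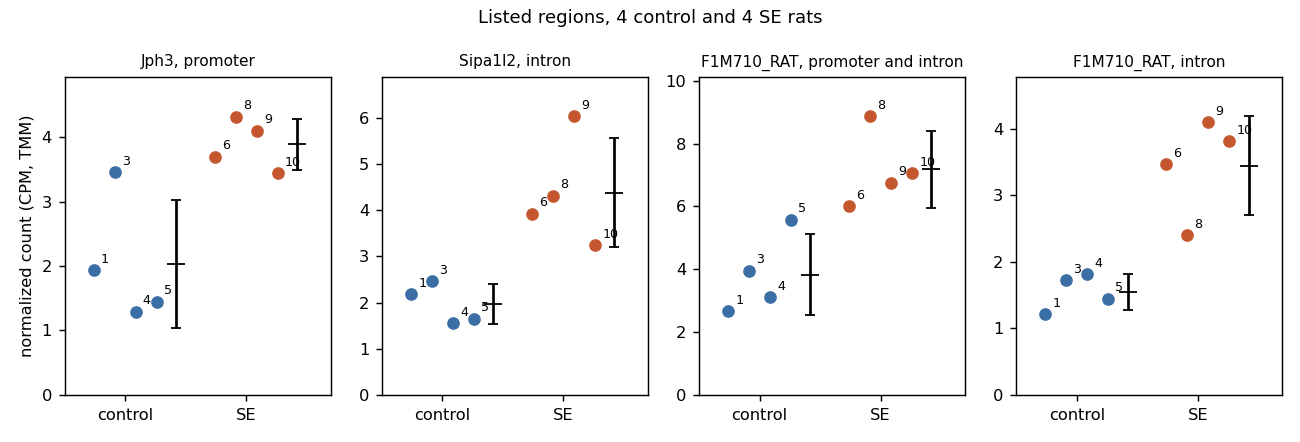
Normalized counts (CPM, vertical axis from 0) of the 4 listed regions in control (blue) and SE rats (orange). Points are rats with their number, and the bars beside them are the mean and SD of 4 rats. Only in the Jph3 panel does a control rat, rat 3 at 3.46, reach the SE rats.

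The listed regions differed in how densely they were covered. Per kb of region the mean normalized count was 5.40 for Jph3, 5.10 for Sipa1l2, 4.79 for the F1M710_RAT promoter region and 4.02 for its intron region. Of all tested regions, 74.6%, 63.0%, 48.1% and 15.6% lay below these levels. The intron region of F1M710_RAT was thus among the sparsely covered tested regions, with 5 to 20 tags per library.

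Control rat 2 and SE rat 7, the libraries left out, did not follow the other rats of their groups in most listed regions. On a scale set over all 10 libraries, control rat 2 had a normalized count of 11.2 in the F1M710_RAT promoter region and 6.08 in its intron region, above every SE rat in both. It had 3.92 in the Jph3 region, within the SE rats, and 1.57 in the Sipa1l2 region, with the other control rats. SE rat 7 had 0.798 for Jph3, 1.15 for Sipa1l2 and 0.975 for the F1M710_RAT intron region, below every control rat in each. In the F1M710_RAT promoter region it had 5.23, within the control rats. With these 2 libraries in the fit, log2 fold changes were 0.38 for Jph3, 0.94 for Sipa1l2, 0.33 for the F1M710_RAT promoter region and 0.20 for its intron region. All 4 were positive and none was called, with adjusted p from 0.914 to 0.956 (edgeR). Sipa1l2 was the listed region that moved least.

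**Figure D2:**
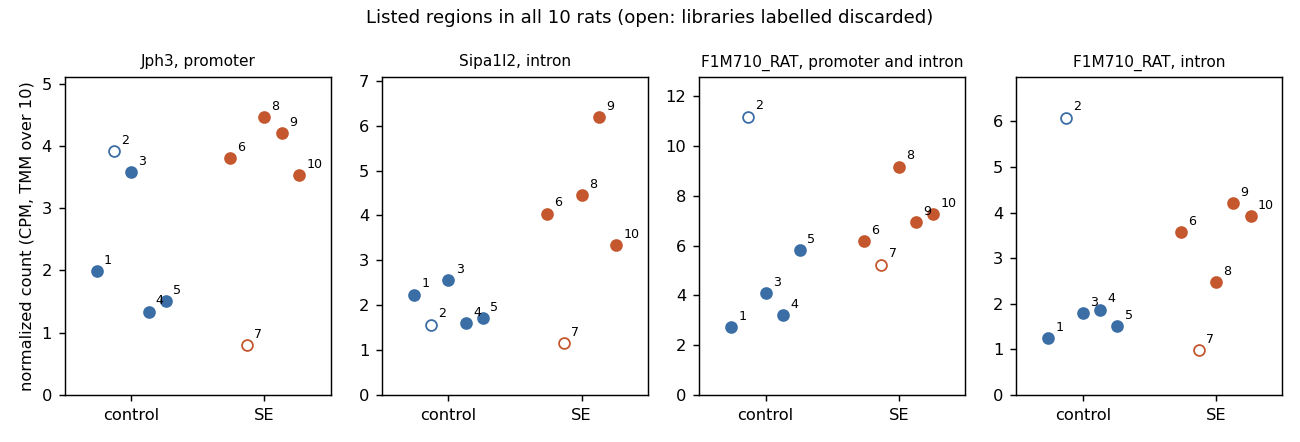
Normalized counts of the 4 listed regions in all 10 rats on a scale set over these libraries (CPM, vertical axis from 0), control in blue and SE in orange, with the libraries labelled discarded as open points. Control rat 2 is the highest of all rats in both F1M710_RAT panels, at 11.2 and 6.08, and SE rat 7 the lowest in the other 2 panels and in the F1M710_RAT intron panel.

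Among the other 176 tested members, 4 were higher in SE rats at p below 0.01 and 0 were lower (edgeR). This is 2.27% higher, where 0.584% of all tested regions were called higher and 1.07% lower, 1.65% in either direction. On chromosome 19 the share called higher was 1.00% and on chromosome 12 it was 0.893%. At an unadjusted p below 0.05, 11 members were higher, or 6.25%, and 0 lower, where 2.93% of all tested regions were higher and 3.97% lower. No member had an adjusted p below 0.05 with edgeR, and the lowest was 0.270. With DESeq2 no member passed either, but the listed regions were given no adjusted p there and could not have passed. The count rests on few regions, and 3 of the 4 lay in the Jph3 window. With the listed regions 8 members were called, or 4.44% of those tested, against 1.65% of all regions in either direction. The listed regions had been chosen for a difference, so this excess is in part built into the choice. The same holds for the counts with 1 rat left out, which include them. Without SE rat 9 there were 4 (2.23% against 1.44%), without control rat 5 there were 5 (2.55% against 1.35%), and without SE rat 10 there were 5 (2.76% against 1.33%), 1 of these lower in SE rats.

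The strongest member lay 92.1 kb before the Jph3 region, on chromosome 19 from 51880746 to 51881329. Its normalized counts were 1.93, 0.989, 2.85 and 1.45 in control and 5.78, 3.60, 6.52 and 3.82 in SE rats, with no overlap. The log2 fold change came to 1.44 (standard error 0.34, adjusted p = 0.270, edgeR), larger than that of any listed region. SE rat 7 had 0 tags there and control rat 2 had 20, and in the fit over all 10 libraries the value was 0.75 and not called.

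Closer to the Jph3 region, 18.2 kb after it, the region from 51992173 to 51993023 had 2.72, 3.88 and 3.31 in control rats 3, 4 and 5 and 1.93 in control rat 1. SE rats 6, 9 and 10 had 6.47, 7.24 and 4.97, but SE rat 8 had 2.16, so the groups overlapped (log2 fold change 0.81, standard error 0.31, adjusted p = 0.604, edgeR). At 28.3 kb, the region from 52002244 to 52003170 had 3.87, 2.97, 1.04 and 3.52 in control and 4.16, 5.28, 5.07 and 5.92 in SE rats, without overlap (log2 fold change 0.82, standard error 0.30, adjusted p = 0.593, edgeR). Control rat 4 stood lowest in it.

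In the F1M710_RAT window the region from 23360996 to 23361752, which ends 6.02 kb before the listed promoter region, was also called. Control rats had 4.84, 5.19, 2.59 and 3.52 and SE rats 5.32, 7.92, 6.04 and 7.26, so that the groups were separated by a narrow gap between control rat 3 and SE rat 6 (log2 fold change 0.72, standard error 0.26, adjusted p = 0.581, edgeR). In contrast to both listed regions of this gene, control rat 2 was low in it, at 2.75 on the scale of all 10 libraries, as was SE rat 7 at 2.57. The Sipa1l2 window held no called region other than the listed one.

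The best-covered members were not called. Those with the highest normalized count in each window had log2 fold changes of -0.11 (Jph3, 52072126 to 52073538, adjusted p = 0.959), 0.03 (Sipa1l2, 55694975 to 55696556, adjusted p = 0.992) and -0.20 (F1M710_RAT, 23362418 to 23363962, adjusted p = 0.894, edgeR). The last of these lies 3.81 kb from the listed promoter region.

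The regions next to the listed ones were not called. Of the 8 nearest tested neighbours, 1 on each side of every listed region, 7 had a positive log2 fold change, 1 had p below 0.05 and 0 had p below 0.01 (edgeR). For Jph3 the values were 0.30 (standard error 0.33) at 3.60 kb before and 0.22 (standard error 0.31) at 4.88 kb after. For Sipa1l2 they were -0.39 (standard error 0.38) at 2.29 kb before and 0.74 (standard error 0.32) at 2.15 kb after (adjusted p = 0.663, edgeR). The promoter region of F1M710_RAT had a neighbour only 0.054 kb before it, with a log2 fold change of 0.20 and a standard error of 0.40, and one 3.86 kb after it with 0.76 and 0.41. Its intron region had 0.41 and 0.40 at 2.62 kb before and 0.52 and 0.32 at 0.248 kb after. Within these errors, neither a shared change nor an absent one could be shown for the neighbours.

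**Figure D3:**
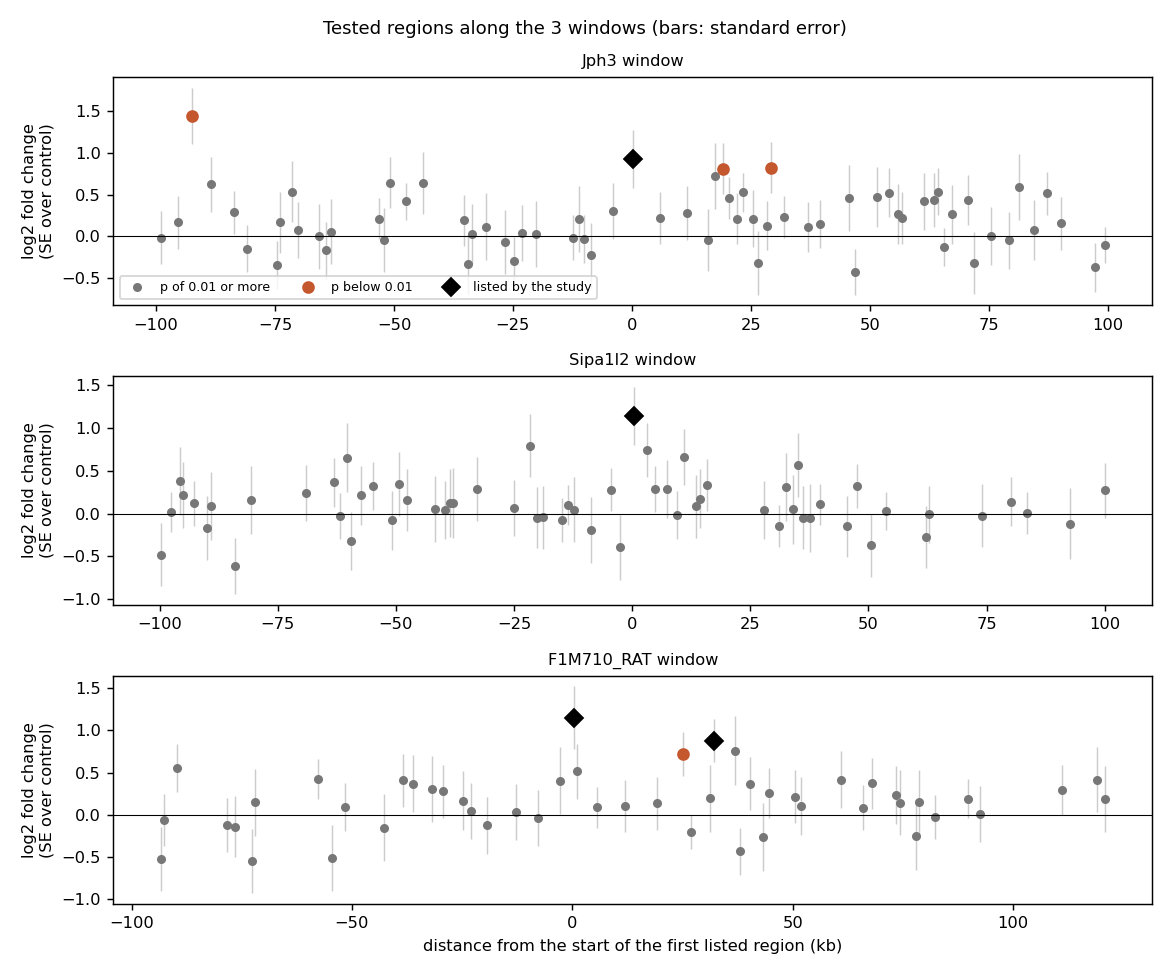
Log2 fold change of SE over control for every tested region of the 3 windows, against the distance in kb from the start of the first listed region. Bars are standard errors, black diamonds are the listed regions and orange points other regions with p below 0.01, and the highest point is the Jph3 member at 1.44 near the left edge.

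In the fit of 8 libraries, small positive differences were spread through all 3 windows. Without the listed regions, 47 of 67 tested members for Jph3 had a positive log2 fold change, 40 of 61 for Sipa1l2 and 34 of 48 for F1M710_RAT, against 50.3% of all tested regions. Medians were 0.17, 0.08 and 0.15, against 0.00 over all tested regions, with a median standard error of 0.34 for a single member. Groups did not overlap, with SE higher, in 3 of the 176 members, a share like the 1.69% of all tested regions. With SE lower there were 0 such members, against 1.94% of all tested regions. With all 10 libraries and the listed regions included, 33 of 68 were positive for Jph3, 37 of 66 for Sipa1l2 and 33 of 54 for F1M710_RAT. Medians in that fit were -0.02, 0.03 and 0.17, against -0.01 over all tested regions.

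Members within 10 kb of a listed region had a median log2 fold change of 0.25 over 22 regions, those at 10 to 50 kb one of 0.12 over 79, and those beyond one of 0.12 over 75. By window, the median within 10 kb was 0.28 over 8 regions for Sipa1l2 and 0.28 over 10 for F1M710_RAT. For Jph3 it was 0.09 over 4 regions, lower than in the rest of that window. Single regions within 10 kb ran from -0.43 to 0.76.

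**Figure D4:**
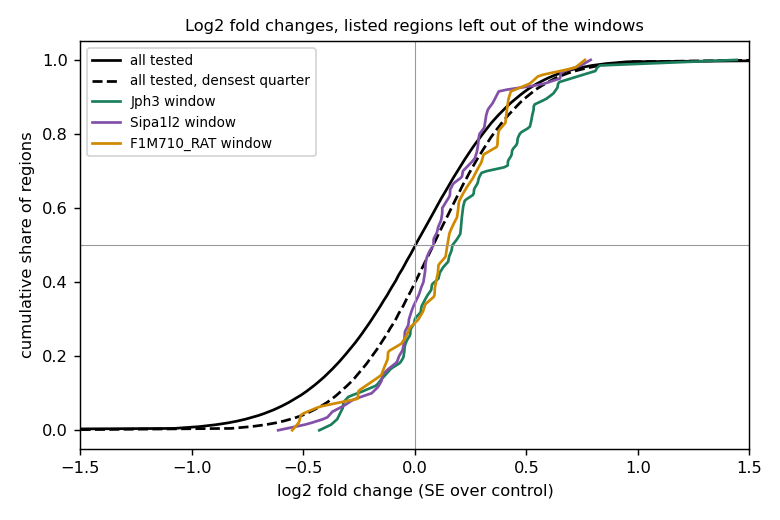
Cumulative share of regions (vertical axis) by log2 fold change of SE over control (horizontal axis) for the tested members of each window without the listed regions, for all tested regions (solid black) and for those in the densest stretches of the table, with 44 to 82 regions within 50 kb (dashed black). The Jph3, Sipa1l2 and F1M710_RAT curves cross a share of 0.5 at 0.17, 0.08 and 0.15, and the dashed curve at 0.08.

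All 3 windows lie where the table is dense. Tested members had between 32 and 64 other regions within 50 kb on either side, with a median of 50, while the median over the whole table was 32. Of the 180 tested members, 146 had 44 or more, as did 75155 of all tested regions. In that dense class as a whole the median log2 fold change was 0.08, 60.2% of regions were positive, 0.861% were called higher and 0.221% lower. Among the 71143 tested regions with 0 to 21 such neighbours, a class with 0 members, the median was -0.17 and 3.01% were called lower. The difference between SE and control thus moved with local density across the table, and the median of the Sipa1l2 window was like that of the dense class. The part of density in the members' differences was otherwise not tested. When the trend of each library on density and mean count was removed, the median over all tested members was 0.06 in place of 0.14, 107 of 180 were positive in place of 125, and 4 were called, all higher. This is 2.22% of the members, where 0.561% of all tested regions were called higher in that fit and 1.24% in either direction. The member share includes listed regions, which had been chosen for a difference, so its excess is no independent evidence. Among the 176 members not listed, the sole region called was the Jph3 member at 51880746 (log2 fold change 1.39). The other called members were the listed regions of Sipa1l2 (1.06) and F1M710_RAT (0.79 and 1.09). The listed Jph3 region had 0.87 in that fit and was not called.

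Summed over a window, the tags give a single value per rat with little counting error, between 908 and 1620 tags per library. The listed regions were left out of these sums. For the 99 other regions of the Jph3 window, the summed normalized counts were 292, 261, 272 and 250 in control rats 1, 3, 4 and 5 and 303, 303, 318 and 309 in SE rats 6, 8, 9 and 10. All 4 SE rats lay above all 4 control rats. On the log2 scale the sums averaged 8.07 ± 0.0960 (SD, n = 4) without and 8.27 ± 0.0320 (SD, n = 4) after SE, a difference of 0.20 or 1.15 times (exact two-sided permutation test, p = 0.0286, the smallest that 4 against 4 allows). Adjusted by Benjamini-Hochberg over the 3 windows, the exact p was 0.0857. Other windows were not summed, and the trend on density was not removed from the sums. The permutation test therefore does not set a window apart from other dense stretches.

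For the 107 other regions of the F1M710_RAT window, the sums were 257, 248, 235 and 232 in control and 255, 270, 273 and 275 in SE rats. SE rat 6 fell below control rat 1, and the other 3 SE rats lay above every control rat. The difference of the log2 sums was 0.14 or 1.10 times (exact two-sided permutation p = 0.0571, adjusted p = 0.0857). With the listed regions included, which were chosen for this difference, it was 0.17, a value given without a test.

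Sipa1l2 had the smallest difference of the 3 windows. Over its 108 other regions the sums were 299, 269, 256 and 258 in control and 295, 292, 280 and 295 in SE rats, and control rat 1 lay above all SE rats. The difference of the log2 sums was 0.11 or 1.08 times (exact two-sided permutation p = 0.143, adjusted p = 0.143). Control rat 1 was the highest control rat in all 3 windows, and the control sums spread more than the SE sums in each.

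Over all 10 rats the differences of the log2 sums were 0.01 for Jph3, 0.03 for Sipa1l2 and 0.12 for F1M710_RAT (exact two-sided permutation p = 0.929, 0.603 and 0.0317, and 0.929, 0.904 and 0.0951 adjusted). On that scale control rat 2 had the highest sum of all rats in the Jph3 window, 387, and SE rat 7 the lowest, 237. In the F1M710_RAT window control rat 2 had 277 and SE rat 7 had 289.

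**Figure D5:**
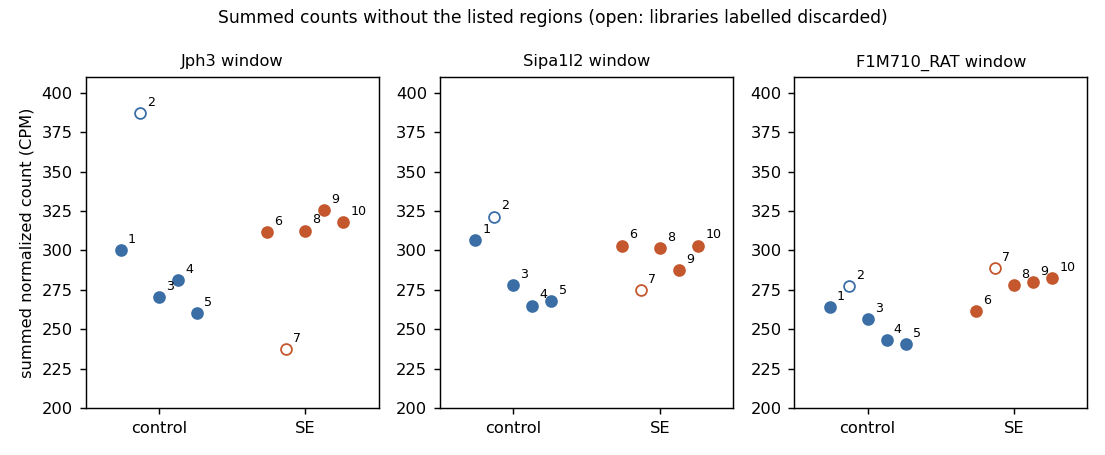
Summed normalized counts (CPM over all 10 libraries, on an axis that does not start at 0) of each window without its listed regions, for control (blue) and SE rats (orange), with the libraries labelled discarded as open points. In the Jph3 panel the 4 SE rats used lie above the 4 control rats used, while control rat 2 lies at 387 and SE rat 7 at 237.

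Across the 8 libraries, the listed regions also followed each other. Pearson's r of the log2 normalized counts was 0.901 between the Jph3 and Sipa1l2 regions, which lie on the same chromosome, and between 0.681 and 0.808 for the other pairs. All of them had been chosen for a difference between the same groups, so some likeness is built into the choice. Of the tested members, the one most like the Jph3 region was the region of its own window from 52037357 to 52038151 (r = 0.958), followed by the Sipa1l2 region. For the Sipa1l2 region these were the Jph3 region and the same region from 52037357 (r = 0.862). Members most like the F1M710_RAT intron region were the called Jph3 members at 51880746 (r = 0.848) and 51992173 (r = 0.815). Those most like the promoter region were at 55674418 in the Sipa1l2 window (r = 0.776) and 51922193 in the Jph3 window (r = 0.770). These values are over 8 libraries that share their scaling and are given as a description.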

How the data were processed

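Counts were deposited as raw tags per region and library. To make them, the authors mapped reads to RN4 (BWA), took the regions that MACS found to differ in any pairwise comparison of libraries, joined these (BEDTools) and counted tags after removing duplicates. The table therefore holds no region without such a difference, and a region's edges depend on all of them. Its coordinates are given as deposited, and region lengths are end minus start.

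Regions were found by an overlap of at least 1 bp with each window. Counts with a sum of 70 or more over the 8 libraries were scaled by TMM, and edgeR (version 4.0.16, run in R 4.3.3) gave quasi-likelihood tests, with condition as the only term, two-sided, and Benjamini-Hochberg adjustment over all 291987 tested regions. The fit was tested on simulated counts. Standard errors were derived from each log2 fold change and its F statistic. The groups hold separate rats. A chi-square test of counts found no pair of libraries within sampling noise (lowest chi-square per degree of freedom 1.27).

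Named regions were the listed ones, every other member with p below 0.01, the member with the highest count in each window, the nearest tested neighbours, and the 2 members most correlated with each listed region, on edgeR's log2 CPM with a prior count of 2. Members and lists were chosen with earlier results of these data known. Alternatives were edgeR's exact test, DESeq2 (version 1.42.0), library totals, upper-quartile, loess (limma version 3.58.1) and density offsets, no filter, a minimum of 10 counts per library, all 10 libraries, and each rat left out. Adding control rat 2 or SE rat 7 alone, and sums within 10 kb, were chosen after seeing the data. Intervals are not given for counts, and errors across rats include counting error. An annotation of RN4 was not used here, so exon and intron assignments are those of the study, and the other genes of these families were not examined.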

Additional observations from a re-analysis of the deposited data

Results flagged for a closer look

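The libraries labelled discarded, which no comparison of 4 against 4 used, held several values above every control rat used, on the scale set over all 10 libraries. Control rat 2 had normalized counts of 6.08 in the F1M710_RAT intron region, 11.2 in the F1M710_RAT promoter region and 3.92 in the Jph3 region. Its summed normalized counts without the listed regions were 387 for the Jph3 window, 321 for Sipa1l2 and 277 for F1M710_RAT. SE rat 7 had a sum of 289 in the F1M710_RAT window. In 22 groups of 4 rats, those of the called and listed regions and of the window sums, no rat stood apart by Dixon's test. Chance alone would set one apart in about 1 of 20 groups. Among 4 rats only a large gap passes this test, and most of these groups come from regions selected for a difference. The result therefore does not show that the rats agree.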

How the results depend on the processing

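The direction of the 4 listed regions, of the 3 window sums and of the other called members was higher in SE in every alternative run. The number of called members, 8 with the listed regions, was 4 with DESeq2, 4 with density offsets, 2 of 62 tested with at least 10 counts in every library, 3 with control rat 2 added, 0 with SE rat 7 added and 0 with all 10 libraries, and 4 to 7 with 1 rat left out. The share of all regions called in either direction, 1.65% as reported, was 0.488%, 1.24%, 2.01%, 0.993%, 0.396% and 0.497% in the first 6 of these and 1.33% to 2.01% with 1 rat left out. The member counts include listed regions, which were chosen for a difference, so an excess over these shares is no independent evidence. With DESeq2 and with density offsets, every listed region except that of Jph3 was among the 4 called. With SE rat 7 added, 4 of 191 tested members had an unadjusted p below 0.05 (edgeR), where 10167 of all 292379 tested regions did. With all 10 libraries it was 5 of 188 members, where 12067 of all 287564 tested regions passed. In both fits the share was smaller among members than among all regions. The number of called members stayed within 1.5 times in the other 5 alternatives. All calls in the alternatives with other tests, scalings or filters were among the 8.

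Listed regions no longer called had log2 fold changes, with all 10 libraries, of 0.38 (Jph3), 0.94 (Sipa1l2), 0.33 (F1M710_RAT promoter) and 0.20 (F1M710_RAT intron). With control rat 2 added they were 0.69 (Jph3), 0.42 (promoter) and 0.47 (intron), and with SE rat 7 added 0.63 (Jph3), 0.87 (Sipa1l2), 0.78 (promoter) and 0.87 (intron). Jph3 was also not called with DESeq2 (0.94) or density offsets (0.87). With 1 rat left out the ranges were 0.78 to 1.30 (Jph3), 0.96 to 1.27 (Sipa1l2), 0.74 to 1.14 (promoter) and 1.06 to 1.29 (intron).

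The Jph3 window difference of log2 sums was 0.0121 with all 10 libraries and 0.20 within 10 kb of the listed region, neither below 0.05 in the exact permutation test. That of F1M710_RAT passed unadjusted with library totals (0.16), as a mean of log2(CPM + 0.1) (0.13) and with all 10 libraries (0.12). Adjusted by Benjamini-Hochberg over the 3 windows, the exact permutation p was 0.0429, 0.0429 and 0.0951, so that with all 10 libraries did not pass. With the listed regions the F1M710_RAT difference was 0.17, which is no test since these were chosen for the difference. With 1 rat left out the ranges were 0.17 to 0.24 (Jph3), 0.08 to 0.16 (Sipa1l2) and 0.12 to 0.17 (F1M710_RAT), without a test, since 3 against 4 cannot go below 0.0571. The cause of these shifts was not tested. No paired analysis was possible because control and SE rats carry different numbers. Depth limits the listed regions, with 5 to 37 tags per library.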
